A study of Mus musculus with 14 samples.

Results

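The step within the acute phase of stroke was examined by setting the 2 day 3 libraries of sorted mouse microglia against the 2 day 1 libraries, 4 of the 14 libraries of the series. The libraries were taken by their labels and paired by replicate number, so that day 3 replicate 1 stood against day 1 replicate 1 and day 3 replicate 2 against day 1 replicate 2. No sham library was used. Both groups were C57BL/6 mice of 8 to 10 weeks whose distal middle cerebral artery was permanently tied with 10-0 suture while both common carotid arteries were closed for 7 min, so day 3 and day 1 share the strain, the operation and the cell sort and differ in the labels only by time. Microglia were sorted from the cortex, but by which markers and gate is not given in the sources used here. The labels leave unsaid whether a library holds 1 animal or a pool and whether both libraries of a day come from different animals, so a p-value covers only the spread among these samples, and that spread may be technical.

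Microglia are the resident macrophages of the brain. After an arterial occlusion they react within hours with cytokines and chemokines that draw neutrophils and monocytes into the tissue, lower the transcripts that mark their resting state, and later divide and clear dead cells and myelin. Inflammatory, proliferative and clearance programs are all known to be active in stroke tissue in the days between these samplings.

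Total counts were 16328102 and 149992816 at day 3 and 20440442 and 144553466 at day 1, in replicates 1 and 2. In what follows the value of replicate 1 is given first and that of replicate 2 second, gene levels are CPM (counts scaled to a common library size) with TMM factors, and differences are day 3 minus day 1 on a log2 scale. At these totals 3 counts correspond to 0.184 and 0.0200 CPM at day 3, and to 0.147 and 0.0208 CPM at day 1, before TMM scaling.

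The libraries did not group by day. Over 13841 genes the log2 CPM of day 3 replicate 1 and day 1 replicate 1 had a Pearson correlation of 0.969, the highest of any pair among the 12 stroke libraries. The 2 day 3 libraries correlated at 0.902 and the 2 day 1 libraries at 0.883. Day 3 replicate 2 was closest to a day 7 library, replicate 2, at 0.948. With replicate 2 thinned to the depth of replicate 1, day 3 replicate 1 and day 1 replicate 1 correlated at 0.981. The 2 day 3 libraries then correlated at 0.910 and the 2 day 1 libraries at 0.895. The small count added before taking logs depends on the mean library size, so thinning also shifted the value of the unthinned replicate 1 pair. These correlations run across genes within libraries and are descriptions, and libraries of the same replicate number also share a similar depth. The counts of day 3 replicate 1 and day 1 replicate 1 still differed by more than sampling noise, with a chi-square of 78.1 per degree of freedom. That was the lowest value of any pair among the 12 stroke libraries. The next was 197, for replicate 1 of days 60 and 90. Such a value cannot show whether 2 libraries come from separate samples, which was not tested. They were kept as separate libraries by their labels. Every result below is therefore given for both pairs.

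No gene passed the test. edgeR's quasi-likelihood test with the replicate number as a block called 0 genes higher and 0 lower at a Benjamini-Hochberg adjusted p under 0.05 (0% of 13841 genes in each direction), and the smallest adjusted p was 1. At an unadjusted p under 0.05 there were 349 genes, 2.52% of those tested, of which 316 were higher and 33 lower at day 3. limma-voom called 0 genes with 796 at an unadjusted p under 0.05, and DESeq2 called 29, of which 24 were higher and 5 lower. The adjusted p of each gene named below was thus above the threshold in edgeR, and words such as higher and lower describe the values of these 4 libraries.

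As a description without a model, both day 3 libraries lay above both day 1 libraries in 1265 genes (9.14%) and below both in 771 genes (5.57%). With total counts as the only scaling the same split was 1710 higher and 400 lower. A difference of at least 2-fold in the same direction in both pairs was seen in 499 higher genes (3.61%) and 141 lower genes (1.02%). Most of these were at low levels: among the 7608 genes whose mean log2 CPM was 3 or more, it was met by 6 higher and 0 lower genes.

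The 2 pairs differed in how far they moved. In the replicate 1 pair 1407 genes (10.2%) were at least 2-fold higher at day 3 and 779 (5.63%) at least 2-fold lower, while in the replicate 2 pair 2948 (21.3%) were at least 2-fold higher and 1868 (13.5%) at least 2-fold lower. The differences had an SD over genes of 0.941 in the replicate 1 pair and 1.62 in the replicate 2 pair. With the replicate 2 libraries thinned to the replicate 1 totals the gap remained, with SDs of 0.664 and 1.35 over the same genes. The small count added before taking logs scales with library size relative to the mean of the libraries. Thinning therefore also changed the SD of the unthinned replicate 1 pair. The 2 sets of differences had a correlation of −0.0959 over genes and the same sign in 38.6% of genes. In 446 genes day 3 was at least 2-fold higher in the replicate 1 pair and at least 2-fold lower in the replicate 2 pair, and in 354 genes the reverse was seen.

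**Figure D1:**
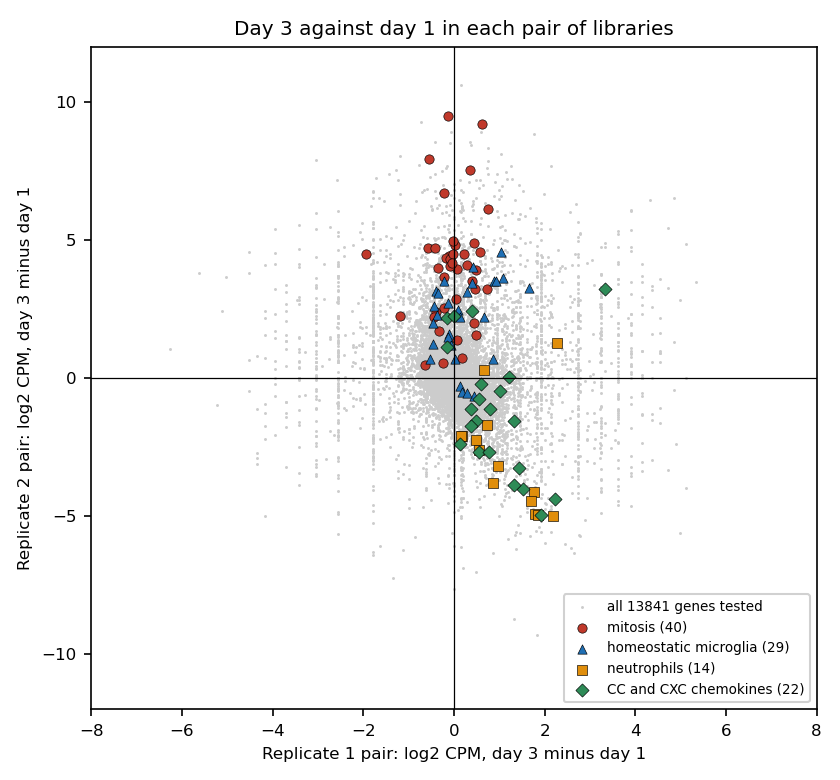
Each point is 1 of the 13841 genes tested, placed by its log2 difference of day 3 minus day 1. The x axis is the replicate 1 pair and the y axis the replicate 2 pair. Members of the mitosis, homeostatic microglia, neutrophil and chemokine lists are marked by colour and shape. The cloud is wider along the replicate 2 axis (SD 1.62 against 0.941) and has no common diagonal (correlation −0.0959).

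Mitotic genes stood high in day 3 replicate 2, with the largest median difference of that pair among the lists of microglial programs. All 40 mitosis genes were higher at day 3 in the replicate 2 pair, with a median difference of 4.09, while in the replicate 1 pair 18 were higher and 22 lower, with a median of −0.03. Over all genes 52.8% were higher and 46.3% lower by any amount in the replicate 2 pair, and 46.8% and 49.9% in the replicate 1 pair. Both day 3 libraries lay above both day 1 libraries in 16 of the 40 genes and below both in 0, beside 9.14% and 5.57% of all genes, and in 22 genes when total counts were the only scaling. The median fitted log2 fold change of the list was 2.27, beside 0.00 over all genes (0.00 in the replicate 1 pair and 0.06 in the replicate 2 pair). Top2a, the topoisomerase that untangles DNA before chromosomes separate, had 9.76 and 49.5 CPM at day 3, against 6.52 and 2.08 CPM at day 1. Its log2 fold change was 2.96 ± 1.06 (SE), with differences of 0.58 in the replicate 1 pair and 4.55 in the replicate 2 pair. Mki67, a proliferation marker, had 10.4 and 23.5 CPM at day 3, against 7.61 and 5.92 CPM at day 1, with no overlap between the days. The kinesin gene Kif11, a motor of the mitotic spindle, had 1.33 and 13.9 CPM at day 3, against 0.858 and 0 CPM at day 1. Bub1, a spindle checkpoint kinase, had 2.72 and 17.3 CPM at day 3, against 1.60 and 0.223 CPM at day 1. In these 4 genes day 1 replicate 2 was the lowest library and day 3 replicate 2 the highest. In the same libraries neutrophil markers summed to 3869 and 936 CPM at day 3, against 1288 and 7498 CPM at day 1, before TMM scaling, and monocyte markers were also highest in day 1 replicate 2; their part in the mitosis values was not tested.

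Some mitotic genes overlapped. Ccnb2, a B-type cyclin, had 10.4 and 36.4 CPM at day 3, against 12.02 and 2.88 CPM at day 1, slightly lower at day 3 in the replicate 1 pair. Plk1, a mitotic kinase, had 4.38 and 21.3 CPM at day 3, against 6.52 and 0.788 CPM at day 1, also lower in the replicate 1 pair. Smc4, a condensin subunit, had 18.7 and 26.3 CPM at day 3, against 22.0 and 18.2 CPM at day 1, and gave the lowest fitted change of the list among genes whose mean log2 CPM was 3 or more, at 0.15 ± 0.35 (SE). These values show that the size of the difference within the list ran from small, as in Smc4, to large, as in Top2a.

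Promoters of 3 mitosis genes are shown because mitotic genes are known to share the CCAAT box, bound by NF-Y, and the cell cycle homology region (CHR), bound by the DREAM complex. Each is the 250 bases before the RefSeq start of transcription, read 5′ to 3′ on the gene's strand from RefSeq tables of GRCm38.p6, a different build from that of the counts. Capitals mark CCAAT and CHR (TTTGAA or TTTAAA), in either orientation. Top2a is at chr11:99024190-99024439, Mki67 at chr7:135716380-135716629 and Bub1 at chr2:127831860-127832109, all on the minus strand.
Top2a: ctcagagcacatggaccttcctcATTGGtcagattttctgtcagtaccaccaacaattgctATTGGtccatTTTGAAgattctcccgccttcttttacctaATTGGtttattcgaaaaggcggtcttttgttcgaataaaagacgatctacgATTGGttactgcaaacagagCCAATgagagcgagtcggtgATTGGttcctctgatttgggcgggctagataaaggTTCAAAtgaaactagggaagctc
Mki67: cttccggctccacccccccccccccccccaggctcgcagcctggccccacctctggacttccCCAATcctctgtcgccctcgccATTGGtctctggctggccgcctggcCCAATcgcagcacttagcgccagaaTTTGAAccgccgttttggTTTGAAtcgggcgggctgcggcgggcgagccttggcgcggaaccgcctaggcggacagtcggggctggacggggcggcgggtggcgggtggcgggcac
Bub1: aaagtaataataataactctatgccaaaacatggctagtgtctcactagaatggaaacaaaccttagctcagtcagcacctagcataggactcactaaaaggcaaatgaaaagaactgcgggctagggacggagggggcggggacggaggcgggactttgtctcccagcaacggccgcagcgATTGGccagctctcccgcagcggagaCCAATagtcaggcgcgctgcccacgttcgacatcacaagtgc
The Top2a window holds 6 CCAAT boxes and 2 CHR matches, the Mki67 window 3 and 2, and the Bub1 window 2 and 0. CCAAT was found in 81.8% of 33 windows of mitosis genes (32 of 40 genes matched), beside 33.8% of all 32851 windows, and CHR in 54.5% beside 25.2%. Both together were found in 48.5% of mitosis windows, beside 8.78% of all windows. Other sets and motifs also lay above all windows: CCAAT was found in 57.9% of 38 windows of replication genes, and the GC box GGGCGG, searched on both strands, in 69.7% of mitosis windows and 63.2% of replication windows, beside 32.7% of all windows. A motif match describes letters in the window and is not a measured site.

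DNA replication genes were near the background in their count without overlap, but most were higher at day 3 in the replicate 2 pair. In that pair 37 of the 40 were higher, beside 52.8% of all genes. In the replicate 1 pair 28 were lower, beside 49.9% of all genes. With total counts alone 8 were higher and 0 lower without overlap. Of 40 licensing and S phase genes, 5 were higher and 1 lower without overlap, beside 9.14% and 5.57% of all genes, and the median log2 fold change was 0.63 (−0.28 in the replicate 1 pair and 1.51 in the replicate 2 pair). Mcm5, a subunit of the replicative helicase, had 15.9 and 72.5 CPM at day 3, against 19.3 and 24.5 CPM at day 1, and its log2 fold change was 0.92 ± 0.59 (SE). Rrm2, the small subunit of ribonucleotide reductase, had 10.4 and 42.7 CPM at day 3, against 10.99 and 1.44 CPM at day 1. Slbp, the protein that binds histone mRNA, had 73.1 and 69.6 CPM at day 3, against 89.6 and 83.1 CPM at day 1, and it had the lowest fitted change of the list among genes whose mean log2 CPM was 3 or more, at −0.27 ± 0.29 (SE). In both Mcm5 and Rrm2 the replicate 1 pair showed day 3 below day 1, while the replicate 2 pair showed it well above.

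Genes that mark resting microglia were also high in day 3 replicate 2. Of 29 homeostatic genes, 11 were higher without overlap and 0 lower (background 9.14% and 5.57%). The median log2 fold change was 0.97 (0.13 in the replicate 1 pair and 2.29 in the replicate 2 pair). The summed level of the list was 6829 and 21879 CPM at day 3, against 7103 and 6125 CPM at day 1, before TMM scaling, so day 3 replicate 2 stood alone. P2ry12, Tmem119, Cx3cr1 and the other markers of the list had counts in all 4 libraries. P2ry12, the ADP receptor that steers microglial processes, had 121 and 253 CPM at day 3, against 91.8 and 23.1 CPM at day 1, with a log2 fold change of 1.73 ± 0.77 (SE). Sall1, a zinc finger factor that keeps microglial identity, had 3.45 and 19.5 CPM at day 3, against 1.09 and 2.01 CPM at day 1. Siglech, a lectin that is also on the dendritic cell list, had 26.0 and 133 CPM at day 3, against 14.1 and 11.7 CPM at day 1, with differences of 0.88 in the replicate 1 pair and 3.50 in the replicate 2 pair. All 3 genes lay above day 1 in both day 3 libraries, by less in replicate 1. In the same libraries the neutrophil markers described with the chemokines summed to 3869 and 936 CPM at day 3, against 1288 and 7498 CPM at day 1, and their part in these values was not tested.

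Slc2a5, the fructose transporter, and Sparc, a secreted matrix-binding protein made by resting microglia, met all parts of a rule on values (mean log2 CPM of 3 or more, no overlap, and at least 2-fold in both pairs). Slc2a5 had 6.57 and 72.3 CPM at day 3, against 3.20 and 2.99 CPM at day 1, with differences of 1.03 in the replicate 1 pair and 4.58 in the replicate 2 pair and a log2 fold change of 3.13 ± 0.84 (SE). Sparc had 210.0 and 1088 CPM at day 3, against 98.7 and 88.4 CPM at day 1, with differences of 1.09 in the replicate 1 pair and 3.62 in the replicate 2 pair. Itm2a and Ecscr were the other 2 of the 4 genes that met it, and no gene met it in the lower direction. Itm2a had 10.3 and 30.4 CPM at day 3, against 4.64 and 2.84 CPM at day 1. Ecscr, a gene best known from endothelial cells, had 20.5 and 48.7 CPM at day 3, against 8.41 and 8.76 CPM at day 1. Sparc and Ecscr are also transcribed in vascular cells, whose markers are given with the stromal genes. DESeq2 called Slc2a5 but none of the other 3.

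Other homeostatic genes overlapped. Tmem119, a microglial surface protein, had 292 and 274 CPM at day 3, against 321 and 42.0 CPM at day 1, at like levels in 3 libraries and low in day 1 replicate 2. Cx3cr1, the fractalkine receptor, had 195 and 335 CPM at day 3, against 263 and 54.2 CPM at day 1, with day 1 replicate 2 again the lowest. Csf1r, the receptor for the survival factors CSF1 and IL-34, had 688 and 4121 CPM at day 3, against 754 and 1466 CPM at day 1. Itgam, an integrin subunit of myeloid cells, had 352 and 1222 CPM at day 3, against 287 and 1798 CPM at day 1, but 66.3% of its 50-base transcript words occur in another annotated gene, so its counts are uncertain.

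**Figure D2:**
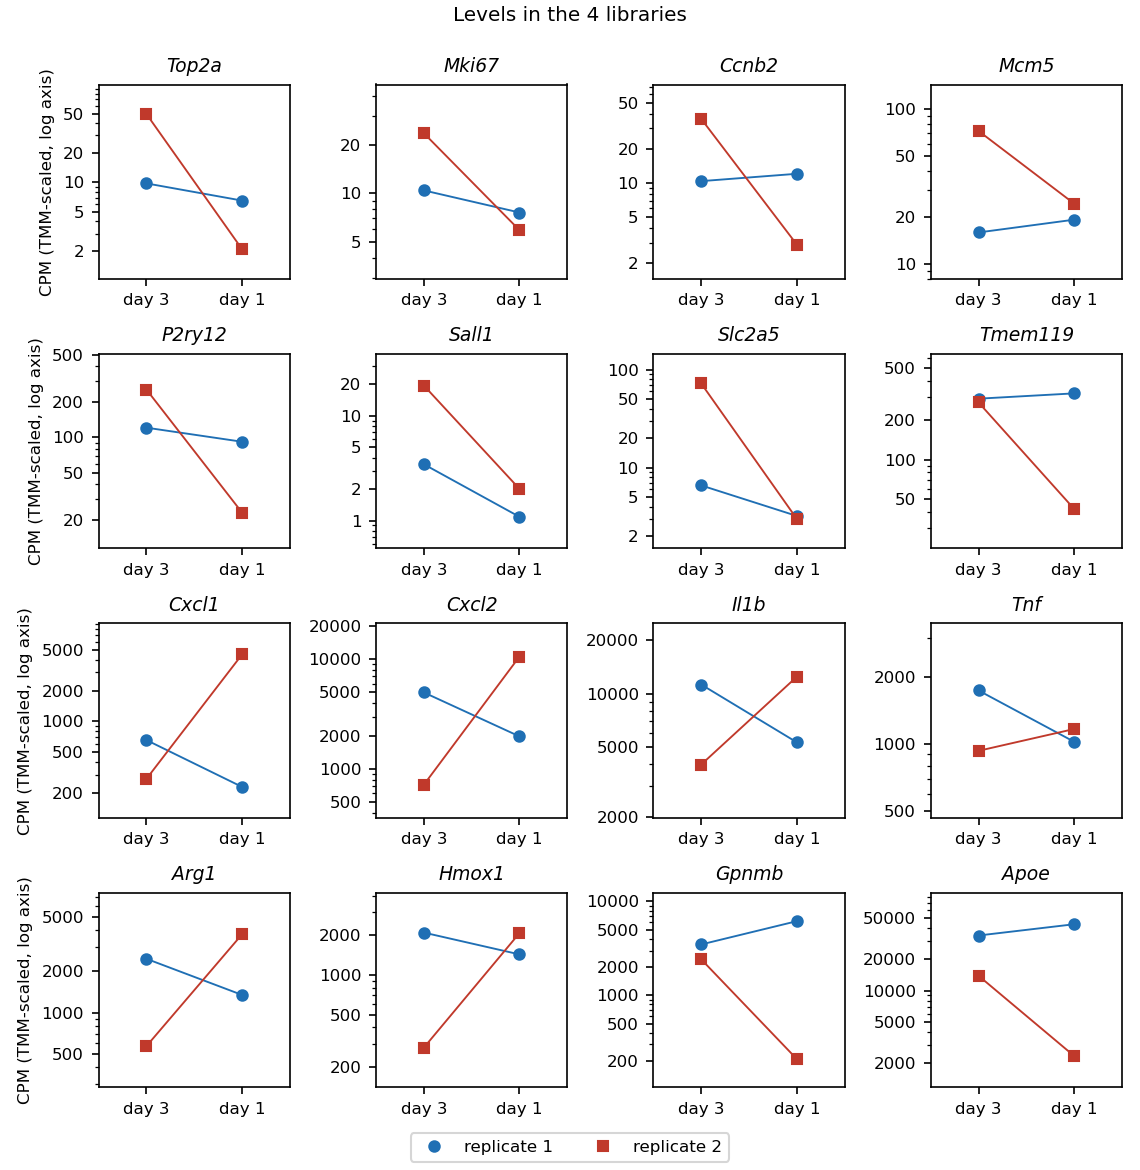
TMM-scaled CPM on log axes of 16 genes in the 4 libraries, day 3 left of day 1; circles are replicate 1 and squares replicate 2, and lines join the libraries of 1 pair. Top2a had 9.76 and 49.5 CPM at day 3, against 6.52 and 2.08 CPM at day 1, while lines cross for the chemokine genes Cxcl1 and Cxcl2.

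Disease-associated and lysosomal genes showed opposite signs in the pairs. Of 30 disease-associated microglia genes, 3 were higher and 1 lower without overlap, beside 9.14% and 5.57% of all genes. Their median log2 fold change was 0.06 (−0.27 in the replicate 1 pair and 0.72 in the replicate 2 pair). Apoe, the main lipid carrier of the brain, had 33890.5 and 13913 CPM at day 3, against 43482 and 2355 CPM at day 1. Gpnmb, a transmembrane glycoprotein of lipid-laden phagocytes, had 3483 and 2420.1 CPM at day 3, against 6166 and 209 CPM at day 1. Spp1, which encodes osteopontin, had 12769.7 and 7272 CPM at day 3, against 27414 and 5838 CPM at day 1. In Apoe and Gpnmb day 1 replicate 2 was lowest and day 1 replicate 1 highest, so the day 1 libraries bracketed those of day 3. Serpine2, a protease inhibitor, had 66.0 and 292 CPM at day 3, against 35.9 and 18.2 CPM at day 1, with no overlap and a log2 fold change of 2.29 ± 0.83 (SE). Lilrb4, an inhibitory receptor, had 694 and 903 CPM at day 3, against 768 and 5192 CPM at day 1, though 46.7% of its words are shared with another gene, so that its counts are uncertain.

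Of the 32 lysosomal genes, 31 were lower at day 3 in the replicate 1 pair and 30 were higher in the replicate 2 pair, beside 49.9% and 52.8% of all genes. The median differences were −0.36 and 1.08. Without overlap 0 genes were higher and 2 lower (1 and 1 with total counts alone), beside 9.14% and 5.57% of all genes. Of 14 neutrophil markers all were higher in the replicate 1 pair and 12 lower in the replicate 2 pair, the opposite order, and their part in the lysosomal values was not tested. Ctsd, cathepsin D, an aspartic protease, had 22274 and 34756 CPM at day 3, against 36929 and 7916 CPM at day 1. Ctsc, cathepsin C, which activates granule proteases, had 1702 and 1463 CPM at day 3, against 2139 and 1858 CPM at day 1, and is 1 of the 2 genes without overlap. Lipid transport had 3 higher and 1 lower of 23 genes without overlap, beside 9.14% and 5.57% of all genes. Its median log2 fold change was 0.00 (−0.28 in the replicate 1 pair and 0.72 in the replicate 2 pair). Ch25h, the enzyme that makes 25-hydroxycholesterol, had 13.3 and 22.2 CPM at day 3, against 11.2 and 6.15 CPM at day 1. In engulfment and complement 3 of 32 genes were higher and 1 lower without overlap, beside 9.14% and 5.57% of all genes. The median of that list was 0.12 (−0.11 in the replicate 1 pair and 1.25 in the replicate 2 pair). Of the complement components, C4b had 4.38 and 425 CPM at day 3, against 3.38 and 11.2 CPM at day 1. C3 had 46.2 and 77.3 CPM at day 3, against 26.8 and 262 CPM at day 1, highest in day 1 replicate 2.

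Chemokine and cytokine lists had medians of opposite sign in the 2 pairs. Of 22 chemokine genes 19 were higher at day 3 in the replicate 1 pair and 16 lower in the replicate 2 pair, beside 46.8% and 46.3% of all genes. The list held 1 higher and 0 lower without overlap (9.14% and 5.57% of all genes), with a median log2 fold change of 0.11 (0.68 in the replicate 1 pair and −1.35 in the replicate 2 pair). Cxcl1, a neutrophil attractant, had 658 and 276 CPM at day 3, against 230.0 and 4507 CPM at day 1, with differences of 1.52 in the replicate 1 pair and −4.03 in the replicate 2 pair. Cxcl2, another ligand of the neutrophil receptor Cxcr2, had 4975 and 719 CPM at day 3, against 1979.8 and 10563 CPM at day 1. The level in day 1 replicate 2 was the highest of the 4 for both. Ccl2, a monocyte attractant, had 487 and 108 CPM at day 3, against 347 and 320.1 CPM at day 1. Ccl7, a relative of Ccl2, had 359 and 62.7 CPM at day 3, against 275 and 137 CPM at day 1. Ccl12 had 62.1 and 43.6 CPM at day 3, against 42.1 and 74.2 CPM at day 1. The fitted changes of these 3 were −0.25 ± 0.56 (SE), −0.12 ± 0.54 (SE) and 0.11 ± 0.78 (SE), all smaller than their errors.

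Among 33 cytokine and NF-kB genes 31 were higher at day 3 in the replicate 1 pair and 29 were lower in the replicate 2 pair (46.8% and 46.3% of all genes), with 1 higher and 1 lower without overlap and a median log2 fold change of −0.14 (0.80 in the replicate 1 pair and −0.78 in the replicate 2 pair). Il1b, the interleukin-1 beta gene, had 11247 and 3968 CPM at day 3, against 5300.4 and 12448 CPM at day 1. Il1a, the interleukin-1 alpha gene, had 677 and 346 CPM at day 3, against 198 and 612 CPM at day 1. Tnf, tumour necrosis factor, had 1745 and 935 CPM at day 3, against 1026 and 1171 CPM at day 1, with a log2 fold change of 0.29 ± 0.58 (SE). The 4 values of each gene overlapped between days. Il6 had 50.9 and 5.12 CPM at day 3, against 9.38 and 21.4 CPM at day 1. Lif had 22.2 and 7.75 CPM at day 3, against 7.15 and 22.3 CPM at day 1. Among list members whose mean log2 CPM was 3 or more Il6 had the highest and Lif the lowest fitted change, at 1.03 ± 0.98 (SE) and −0.70 ± 1.13 (SE). Nos2, inducible nitric oxide synthase, had 4.71 and 4.44 CPM at day 3, against 1.14 and 104 CPM at day 1, and was high in day 1 replicate 2 alone. Ccl5, a T cell and monocyte attractant, had 22.6 and 7.13 CPM at day 3, against 9.79 and 6.92 CPM at day 1. Ccr7, a homing receptor of dendritic cells, had 84.2 and 36.1 CPM at day 3, against 57.1 and 87.8 CPM at day 1. Of 28 immediate early genes 23 were higher in the replicate 1 pair and 26 lower in the replicate 2 pair, beside the same shares of all genes. Without overlap 0 were higher and 2 lower, beside 9.14% and 5.57% of all genes, and with total counts alone 1 was higher and 0 lower. Among these transcription factors, Fos had 4614 and 2355 CPM at day 3, against 5641 and 2939 CPM at day 1. Fosb had 94.8 and 22.4 CPM at day 3, against 42.1 and 12.3 CPM at day 1. Klf2 had 111 and 78.0 CPM at day 3, against 83.6 and 209 CPM at day 1. Fosb was higher at day 3 in both pairs, and Klf2 in the replicate 1 pair alone.

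Neutrophil and monocyte markers had list medians of the same signs as the chemokine and cytokine lists in each pair, at 0.92 and −2.90 for neutrophils and 0.25 and −1.46 for monocytes, in the replicate 1 and the replicate 2 pair. The 14 neutrophil markers tested had a summed level of 3869 and 936 CPM at day 3, against 1288 and 7498 CPM at day 1, before TMM scaling. The 17 monocyte markers summed to 3979 and 5927 CPM at day 3, against 2468 and 12999.5 CPM at day 1. Both sums were highest in day 1 replicate 2. All 14 neutrophil markers were higher at day 3 in the replicate 1 pair and 12 were lower in the replicate 2 pair. Of all genes 46.8% and 46.3% were so. Without overlap 2 markers were higher and 0 lower, beside 9.14% and 5.57% of all genes. S100a8, a calgranulin subunit of neutrophils, had 1313 and 32.8 CPM at day 3, against 287 and 1044 CPM at day 1. Cxcr2 had 164 and 20.1 CPM at day 3, against 89.6 and 278 CPM at day 1. None of the neutrophil or monocyte markers tested was at 0 in any of the 4 libraries. Of the monocyte markers 17 were lower in the replicate 2 pair and 12 higher in the replicate 1 pair. Without overlap 0 were higher and 2 lower, beside the same shares of all genes. With total counts alone 0 were found in either direction. Chil3 had 1091 and 2127 CPM at day 3, against 410.0 and 5833 CPM at day 1. Of its words, however, 26.9% are shared with other genes, most often with Chil4. Vcan had 39.0 and 8.57 CPM at day 3, against 16.2 and 122 CPM at day 1. The part of these cells in the chemokine and cytokine values was not tested, and in bulk samples fewer cells of a type and less RNA per cell cannot be told apart.

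Summed levels of the other marker lists, before TMM scaling, are given for each library. B cell markers summed to 32.9 and 69.0 CPM at day 3, against 46.2 and 10.2 CPM at day 1. T and NK cell markers summed to 45.7 and 34.7 CPM at day 3, against 45.7 and 44.8 CPM at day 1. Dendritic cell markers summed to 499 and 497 CPM at day 3, against 524 and 291 CPM at day 1. The B cell sum was lowest in day 1 replicate 2, and the T and NK cell sums were close to each other. Most of the T and NK cell sum came from 1 gene, Il7r. With TMM scaling Il7r had 41.4 and 19.9 CPM at day 3, against 45.2 and 30.0 CPM at day 1. Most of the B cell sum came from Cd22 and Cd79b. Cd79b had 9.36 and 18.1 CPM at day 3, against 18.7 and 6.13 CPM at day 1. These sums therefore do not measure lymphocyte content. Oligodendrocyte markers summed to 122 and 170.2 CPM at day 3, against 143 and 221 CPM at day 1. Astrocyte markers summed to 37.1 and 41.2 CPM at day 3, against 22.2 and 84.5 CPM at day 1. Neuronal markers summed to 2.39 and 1.73 CPM at day 3, against 0.881 and 9.52 CPM at day 1. All 3 of these sums were highest in day 1 replicate 2. Oligodendrocyte precursor markers summed to 4.23 and 23.6 CPM at day 3, against 2.35 and 1.41 CPM at day 1. That list shares Pdgfra with the fibroblast and mural cell list given below, so its sum is not particular to precursor cells. The 1 erythroid marker tested was at 0.367 and 0.167 CPM at day 3, against 0.0978 and 4.43 CPM at day 1. Of all genes 9.14% were higher and 5.57% lower without overlap. Without overlap, 2 higher and 2 lower genes were found among 10 B cell markers. Among 17 T and NK cell markers 2 were higher and 3 lower. The 8 oligodendrocyte and the 9 astrocyte markers each held 0 higher and 1 lower, and the 10 dendritic cell and the 3 oligodendrocyte precursor markers each held 1 higher and 0 lower. The 7 neuronal markers and the 1 erythroid marker held 0. Pax5, Blk, Fcer2a and Vpreb3, among others, of the B cell list and Cd3e, Cd8a, Cd8b1, Lat and Thy1 of the T and NK cell list were at 0 in at least 1 library. Mbp, a myelin transcript, had 48.5 and 40.7 CPM at day 3, against 51.1 and 155 CPM at day 1. Cd22, a lectin of B cells that microglia also transcribe, had 25.2 and 40.4 CPM at day 3, against 33.6 and 2.45 CPM at day 1. Border-associated macrophage markers summed to 2729 and 2226 CPM at day 3, against 2347 and 1324 CPM at day 1, with 1 higher and 0 lower without overlap in 14 genes.

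**Figure D3:**
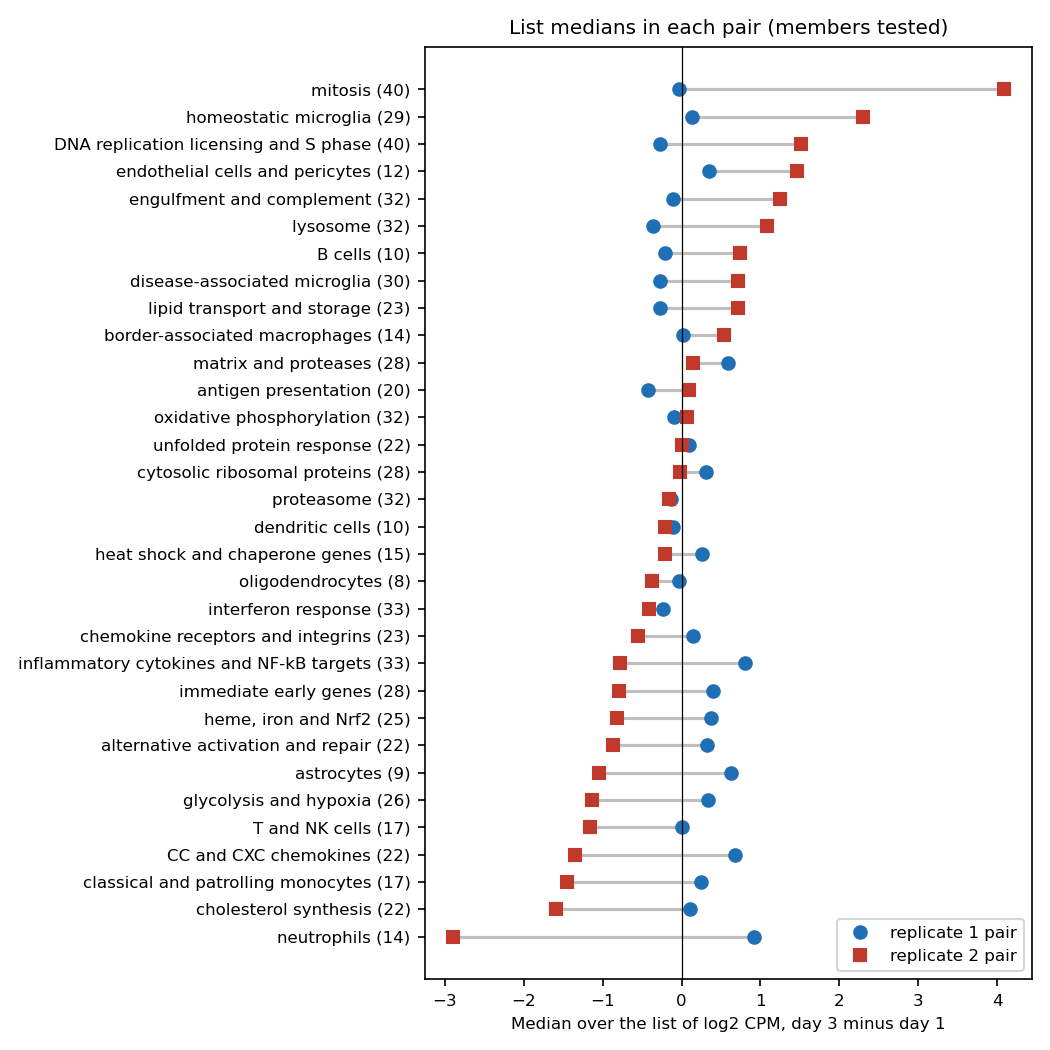
Median log2 difference of day 3 minus day 1 of the gene lists, for the replicate 1 pair and the replicate 2 pair. The erythroid, oligodendrocyte precursor, neuronal, and fibroblast and mural cell lists are not drawn. The mitosis list has medians of −0.03 and 4.09, the homeostatic list 0.13 and 2.29, and the neutrophil list 0.92 and −2.90, so most lists differ more in the replicate 2 pair.

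Most repair, heme and redox genes overlapped between the days, and their list medians had opposite signs in the pairs. Arg1, arginase 1, which competes with Nos2 for arginine, had 2465 and 569 CPM at day 3, against 1343 and 3731 CPM at day 1, with differences of 0.88 in the replicate 1 pair and −2.71 in the replicate 2 pair and a log2 fold change of −1.20 ± 1.01 (SE). Hmox1, the enzyme that degrades heme, had 2099 and 281 CPM at day 3, against 1434 and 2082 CPM at day 1. Slc7a11, a cystine transporter that feeds glutathione synthesis, had 182 and 41.4 CPM at day 3, against 82.9 and 404 CPM at day 1. All 3 had the lowest of their 4 values in day 3 replicate 2. The 22 repair genes held 2 higher and 0 lower without overlap, beside 9.14% and 5.57% of all genes. Their median was −0.05 (0.32 in the replicate 1 pair and −0.87 in the replicate 2 pair). The 25 heme, iron and Nrf2 genes held 2 higher and 2 lower without overlap, beside the same shares of all genes. Their median was −0.27 (0.38 in the replicate 1 pair and −0.82 in the replicate 2 pair).

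Over 22 cholesterol synthesis genes the median log2 fold change was −0.88 (0.11 in the replicate 1 pair and −1.59 in the replicate 2 pair). Without overlap 0 were higher and 4 lower (1 lower with total counts alone), beside 9.14% and 5.57% of all genes. Sqle, squalene epoxidase, had 13.9 and 6.24 CPM at day 3, against 8.93 and 64.8 CPM at day 1. Srebf2, the transcription factor of sterol genes, had 43.8 and 43.6 CPM at day 3, against 45.4 and 148 CPM at day 1, lower without overlap. In both genes day 1 replicate 2 was the highest library; the leukocyte markers above were also highest there, and their part in these values was not tested. Glycolysis and hypoxia genes had a median of −0.45 (0.33 in the replicate 1 pair and −1.14 in the replicate 2 pair) over 26 genes. Without overlap 1 was higher and 2 lower (2 and 1 with total counts alone), beside the same shares of all genes. Slc16a3, a lactate exporter, had 281 and 182 CPM at day 3, against 168 and 737 CPM at day 1, the lowest fitted change of the list among genes whose mean log2 CPM was 3 or more. Hk2, a hexokinase, had 33.7 and 20.2 CPM at day 3, against 21.3 and 15.3 CPM at day 1, the highest.

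Interferon and antigen presentation genes had small median differences in both pairs. In each pair 25 interferon response genes were lower at day 3 and 8 higher. Of all genes 49.9% were lower in the replicate 1 pair and 46.3% in the replicate 2 pair. Of 33 interferon response genes 1 was higher and 6 lower without overlap (background 9.14% and 5.57%; 2 lower with total counts alone), and the median log2 fold change was −0.22 (−0.23 in the replicate 1 pair and −0.41 in the replicate 2 pair). Isg15, a ubiquitin-like protein induced by interferon, had 52.8 and 19.4 CPM at day 3, against 45.6 and 27.7 CPM at day 1, with a log2 fold change of −0.10 ± 0.46 (SE). Ifnb1, the interferon beta gene, had 44.1 and 6.69 CPM at day 3, against 15.7 and 10.7 CPM at day 1, highest in day 3 replicate 1. Usp18, which removes Isg15 from proteins, had 40.2 and 55.4 CPM at day 3, against 62.1 and 82.6 CPM at day 1, lower without overlap. Antigen presentation had 0 higher and 1 lower of 20 genes without overlap, with a median of −0.31 (−0.43 in the replicate 1 pair and 0.10 in the replicate 2 pair). Cd74, which chaperones MHC class II molecules, had 5452 and 6668 CPM at day 3, against 9561 and 6400.2 CPM at day 1. H2-Q4, an MHC class I gene, had 1.20 and 49.2 CPM at day 3, against 2.17 and 2653 CPM at day 1 and its level followed the replicate number: in the other stroke times it was 1.08 to 4.24 CPM in replicate 1 and 1962 to 4515 CPM in replicate 2. For H2-Q4, 21.8% of its words are shared with other genes, most often with H2-K1, so its counts are uncertain.

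Genes of housekeeping machinery had small medians in both pairs. Oxidative phosphorylation had a median of 0.08 (−0.10 in the replicate 1 pair and 0.06 in the replicate 2 pair). Of its 32 genes 0 were without overlap in either direction. Beside this and the counts below, 9.14% of all genes were higher and 5.57% lower without overlap. The proteasome had a median of −0.13 (−0.14 in the replicate 1 pair and −0.16 in the replicate 2 pair). Without overlap 0 were higher and 3 lower of 32. In the replicate 1 pair 25 were lower and 7 higher, and in the replicate 2 pair 24 were lower and 8 higher. Of all genes 49.9% and 46.3% were lower in these pairs. The ribosomal protein list had a median of 0.23 (0.31 in the replicate 1 pair and −0.02 in the replicate 2 pair). Without overlap 1 was higher and 1 lower of 28. Rpl3 was matched through a synonym to F2, the symbol of prothrombin. These values therefore do not describe ribosomal protein genes alone. The unfolded protein response had 2 higher and 0 lower of 22, and heat shock genes 0 higher and 2 lower of 15 (1 and 1 with total counts alone). Hspa1a, an inducible heat shock protein, had 128 and 316 CPM at day 3, against 61.4 and 329 CPM at day 1. Of its words 60.3% are shared with other genes, most often with Hspa1b, so its counts are uncertain. Outside housekeeping genes, chemokine receptors and integrins had 0 of 23 without overlap, and the matrix and protease list 4 higher and 0 lower of 28. The matrix list had medians of 0.59 in the replicate 1 pair and 0.14 in the replicate 2 pair. In it 5 genes were at least 2-fold higher in both pairs and 0 lower, beside 3.61% and 1.02% of all genes. It shares Col1a1 and Col3a1 with the stromal genes given next, and Sparc with the homeostatic list.

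Collagens and other stromal genes were, for the most part, higher at day 3 in both pairs. This list of 25 fibroblast and mural cell genes was drawn up after their values were seen, so its counts are a description and support nothing. Of the 24 tested, 16 were higher without overlap and 0 lower, and 16 were at least 2-fold higher in both pairs (backgrounds 9.14%, 5.57% and 3.61%). Col1a2, a chain of type I collagen, had 5.84 and 61.8 CPM at day 3, against 0.687 and 3.14 CPM at day 1, with a log2 fold change of 3.86 ± 0.72 (SE). Col3a1, the chain of type III collagen, had 4.38 and 83.3 CPM at day 3, against 1.09 and 0.795 CPM at day 1, with 4.83 ± 1.12 (SE). Dcn, the proteoglycan decorin, had 13.9 and 17.6 CPM at day 3, against 3.15 and 2.65 CPM at day 1. All 3 were above day 1 in both day 3 libraries. Col6a2 had 10 and 370 counts at day 3, against 0 and 0 at day 1, and most of its counts came from the deeper library. Acta2 and Myh11, contractile genes of mural cells, lay outside this pattern. Acta2 had 21.0 and 8.56 CPM at day 3, against 16.3 and 46.3 CPM at day 1. Myh11 had 0.133 and 0.351 CPM at day 3, against 0.229 and 3.59 CPM at day 1. Of this list DESeq2 called Col12a1, Col1a1, Col1a2, Col3a1, Col6a2, Loxl1, Pdgfra and Smoc2, all higher, and edgeR called none.

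The endothelial and pericyte list, which shares Pdgfrb with the stromal list, had 4 of 12 genes higher and 0 lower without overlap, beside 9.14% and 5.57% of all genes. In the replicate 1 pair 7 of the 12 were higher and in the replicate 2 pair 11. The list had a median log2 fold change of 1.35 (0.34 in the replicate 1 pair and 1.46 in the replicate 2 pair). Cldn5, a tight-junction protein of brain endothelium, had 10.4 and 16.0 CPM at day 3, against 7.27 and 1.70 CPM at day 1. Pecam1, an adhesion molecule of endothelium and leukocytes, had 6.11 and 20.5 CPM at day 3, against 5.15 and 22.8 CPM at day 1, with a fitted change of −0.04 ± 0.67 (SE). Before TMM scaling, the summed level of this list was 83.3 and 193 CPM at day 3, against 94.8 and 99.9 CPM at day 1, and that of the stromal list 70.6 and 430.1 CPM at day 3, against 30.6 and 82.2 CPM at day 1. The part of stromal and vascular cells in the sorted samples was not tested.

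The later libraries place these levels in the time course, in CPM for replicates 1 and 2. Top2a had 6.52 and 2.08 at day 1, 9.76 and 49.5 at day 3, 67.1 and 52.0 at day 7, 14.03 and 2.01 at day 21, 6.86 and 8.14 at day 60 and 23.7 and 36.7 at day 90. P2ry12 had 91.8 and 23.1 at day 1, 121 and 253 at day 3, 91.7 and 147 at day 7, 143 and 361 at day 21, 180.2 and 103 at day 60 and 199.7 and 123 at day 90. Cxcl2 had 1979.8 and 10563 at day 1, 4975 and 719 at day 3, 124 and 201 at day 7, 287 and 165 at day 21, 780.3 and 857 at day 60 and 134 and 129.7 at day 90. Both day 3 libraries of Cxcl2 lay above both day 7 libraries, and Top2a had its highest level at day 7 in both replicates. Arg1 had 1343 and 3731 at day 1, 2465 and 569 at day 3, 4.15 and 3.73 at day 7, 4.66 and 0.638 at day 21, 1.23 and 2.31 at day 60 and 1.499 and 0.353 at day 90, so its high levels were at days 1 and 3. Sparc had 98.7 and 88.4 at day 1, 210.0 and 1088 at day 3, 162 and 655 at day 7, 373 and 2128 at day 21, 175 and 213 at day 60 and 188 and 237 at day 90, and Col3a1 had 1.09 and 0.795 at day 1, 4.38 and 83.3 at day 3, 35.5 and 90.6 at day 7, 14.6 and 106 at day 21, 4.05 and 5.12 at day 60 and 14.3 and 28.9 at day 90. The same fit called 0 genes for day 7 against day 3, and 3 for day 60 against day 21.

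**Figure D4:**
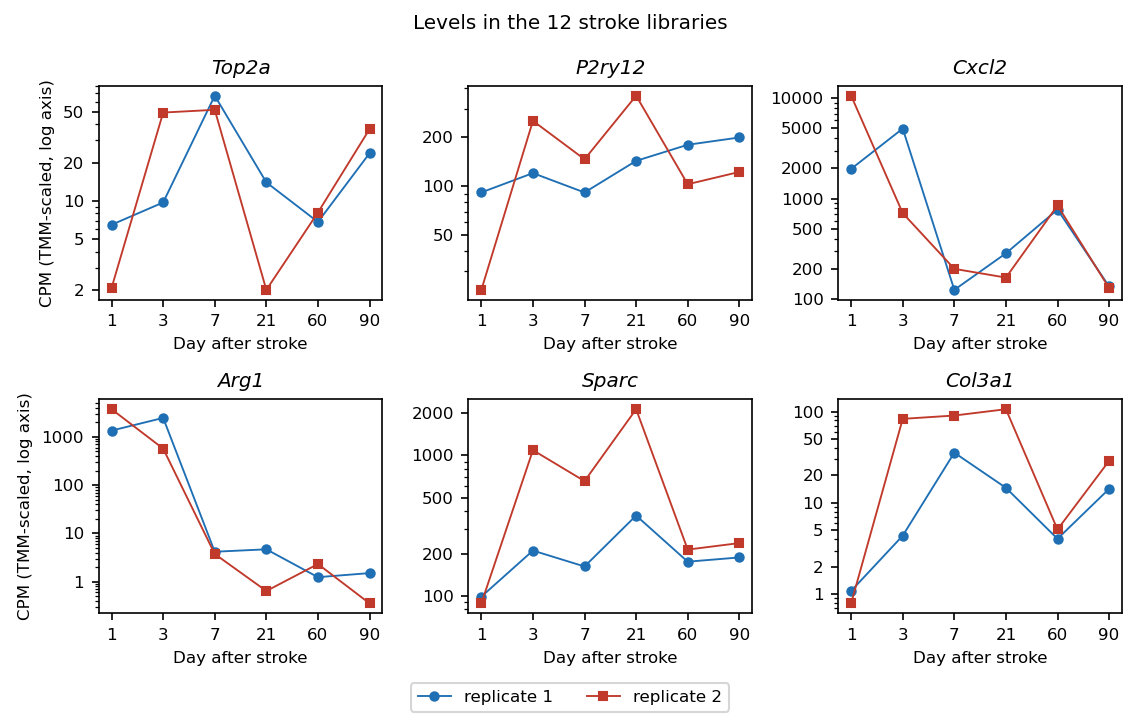
TMM-scaled CPM on log axes of 6 genes in the 12 stroke libraries, by day after stroke on an evenly spaced axis; circles are replicate 1 and squares replicate 2. Arg1 is highest at days 1 and 3 in both replicates, Top2a is highest at day 7 in both, and Col3a1 is lowest at day 1 in both.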

How the data were processed

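RNA of sorted cortical microglia was sequenced in 14 libraries, 2 in each of 7 groups; 12 stroke libraries enter the fit, and the 2 day 3 and 2 day 1 libraries the comparison. The values are whole-number gene counts that the authors deposited, 1 table for the series, and all 14084 genes in it equal the 14 single-library files. The submitters' processing notes name Bowtie2 2.3.4.2, HTSeq 0.6.1 and mm9; strand setting and annotation are not stated there, so overlapping and antisense genes cannot be separated. Symbols came from the table, because 23 had become dates in the single files.

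Counts were analysed with R 4.3.3 and edgeR 4.0.16. edgeR's filter by group kept 13841 genes, leaving out 243. TMM factors set the scale, and a quasi-likelihood model with a mean per day and the replicate number as a block was fitted, with a common biological coefficient of variation of 0.529. The other stroke times were included to estimate the spread. They also enter the replicate block and the TMM factors, so they can move the fitted changes. With the 4 libraries alone, the fitted change took the other sign in 4 of 108 genes given values. Differences within pairs use log2 CPM with a prior count of 2, and floors rest on 3 counts and cover counting error only. Alternatives with DESeq2 1.42.0 and limma-voom (limma 3.58.1) and other scalings, filters and library sets were run.

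The comparison, its gene lists and the tests were chosen with earlier results of these data known. Named genes were the panel, the highest and lowest member of each list by fitted change among genes whose mean log2 CPM was 3 or more, and the genes that met that level, no overlap and 2-fold in both pairs; called genes would have come first. Genes named outside this rule, among them Kif11, Bub1, Plk1, Ctsd, Sqle, Srebf2, Usp18, Cldn5, the stromal genes and the marker genes at 0, were chosen after their values were seen, and so was the list of fibroblast and mural cell genes. Not every gene of the rule is described. Near-identical copies were sought as shared 50-base words of transcripts.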

Additional observations from a re-analysis of the deposited data

How the results depend on the processing

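edgeR called 0 genes in every setting run: without the replicate block (353 genes at an unadjusted p under 0.05), with all 14 libraries, with the 4 libraries alone, without day 21, under the RLE and upper-quartile scalings, without a filter, with at least 10 counts in each of the 4 libraries, with a minimum fold change of 1.5, with replicate 2 thinned (chosen after seeing the data) and without each of the 4 libraries in turn. limma-voom also called 0, whereas DESeq2 called 29, 24 higher and 5 lower. The cause was not tested. The replicate numbers do not pair the samples by the labels: deviations of same-numbered libraries correlated at 0.0716 to 0.674 over 15 pairs of times (0.370 for days 1 and 3), and all 12 libraries were closest to their own number at other times, which is a hint from the data and not from the design.

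With at least 10 counts in each library, genes without overlap numbered 1143 (653 higher and 490 lower), and genes at least 2-fold in both pairs 72 (67 higher and 5 lower); fewer genes were counted there. With total counts alone 400 genes were lower without overlap. Thinning gave 403 genes at least 2-fold in both pairs, 320 higher and 83 lower, and a prior count of 5 gave 89 lower. Leaving out 1 library (chosen after seeing the data) gave 6115 to 8935 genes without overlap, 3226 to 4781 higher and 2889 to 4154 lower, because fewer libraries are compared. Of 110 genes given values, the fitted change took the other sign in 34 without day 1 replicate 2, 21 without day 3 replicate 2, 15 without day 3 replicate 1 and 12 without day 1 replicate 1. Of 36 list medians, 20 took the other sign without day 1 replicate 2, 8 without day 3 replicate 1, 6 without day 3 replicate 2 and 5 without day 1 replicate 1; 23 did in the replicate 1 pair alone and 6 in the replicate 2 pair alone, 3 without the block, 3 without day 21, 2 under the upper-quartile and 1 under the RLE scaling. The chemokine list median was −0.05 without the block. Depth limits low genes most in the replicate 1 libraries.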
